A study of Homo sapiens with 4 samples.

Results

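The annexins are the 7 genes ANXA1, ANXA2, ANXA4, ANXA5, ANXA6, ANXA7 and ANXA11, chosen by gene name from the 11213 gene names of the deposited table. They are listed as 35 of its 32551 transcripts, and all 7 genes passed the filter on low values (a mean of at least 1 TPM). TPM is a transcript's reads per length, as a share of the same quantity over all transcripts listed in its library. RNA was sequenced from 4 libraries of K562, an established human cell line from chronic myelogenous leukaemia that carries the BCR-ABL1 fusion. Both groups were transduced with lentivirus in 5 µg/ml polybrene and selected with 2 µg/ml puromycin after 72 hours. The 2 shControl libraries carry the genotype label WT and a control hairpin. The 2 shPHF8 libraries carry a hairpin against PHF8, a demethylase of histone lysines that acts at gene starts. The series title gives the question as the effect of this knockdown on control of BCR-ABL1. Whether the shPHF8 numbers 1 and 2 are replicates or separate hairpins is open in the labels, whose treatment text names a single virus against PHF8. Separate cultures are not stated either, and p-values therefore measure only the spread between these samples, which may be technical.

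Annexins are cytosolic proteins that bind phosphatidylserine and other acidic membrane lipids when calcium rises. Each has a conserved core of annexin repeats, which holds the calcium sites, and a variable amino-terminal tail, which binds partners such as the S100 proteins. They are known for membrane repair, vesicle traffic, links between membrane and actin, and, in myeloid cells, the control of inflammation.

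The promoters shown belong to the pair of annexins with the highest levels, ANXA1 and ANXA2, and to ANXA7, which with ANXA2 had an unadjusted p under 0.05. Each line gives the 250 bases before the RefSeq gene start in build GRCh38.p14, 5′ to 3′ on the gene's strand. Capitals mark matches to 5 motifs, searched on both strands: TATAAA, read by the basal factor TBP, GGGCGG, read by Sp1, AGATAA, read by erythroid and megakaryocyte zinc-finger factors, TGAGTCA, read by Jun and Fos, and CACGTG, read by Myc and USF. The windows are chr9:73151615-73151864 on the plus strand, chr15:60397987-60398236 on the minus strand and chr10:73414059-73414308 on the minus strand, in the order printed.
ANXA1: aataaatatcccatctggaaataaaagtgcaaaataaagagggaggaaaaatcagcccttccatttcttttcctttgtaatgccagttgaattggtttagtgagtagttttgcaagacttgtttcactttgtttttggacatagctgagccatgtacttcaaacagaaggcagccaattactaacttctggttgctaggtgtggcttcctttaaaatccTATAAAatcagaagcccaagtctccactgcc
ANXA2: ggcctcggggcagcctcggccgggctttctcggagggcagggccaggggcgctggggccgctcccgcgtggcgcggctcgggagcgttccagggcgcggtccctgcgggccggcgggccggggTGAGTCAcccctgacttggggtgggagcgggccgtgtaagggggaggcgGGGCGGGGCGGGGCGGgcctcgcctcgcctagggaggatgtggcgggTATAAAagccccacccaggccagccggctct
ANXA7: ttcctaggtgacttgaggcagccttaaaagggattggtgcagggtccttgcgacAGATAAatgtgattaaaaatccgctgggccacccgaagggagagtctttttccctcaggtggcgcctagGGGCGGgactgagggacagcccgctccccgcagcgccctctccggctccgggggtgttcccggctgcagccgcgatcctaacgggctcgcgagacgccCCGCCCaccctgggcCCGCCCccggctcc

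These starts differed in base composition. The ANXA1 window was 38.4% G and C and held 0 CpG dinucleotides. The ANXA2 window was 78% G and C with 28 CpG, and the ANXA7 window 66% with 20 CpG. Over all 35116 RefSeq promoter windows of that length the median was 58% G and C. ANXA1 was thus the CpG-free start among these, with a TATAAA match close to its gene start and no GGGCGG match. RefSeq gave 11 windows for the 7 annexins. TATAAA stood in 10.7% of all windows and in 3 of the 11, 1 each for ANXA1, ANXA2 and ANXA11. GGGCGG stood in 42.6% of all windows and in 7 of the 11, which covered 6 annexins, all but ANXA1. AGATAA, in 9.17% of all windows, was found in 1, for ANXA7. TGAGTCA, in 4.2%, was found in 1, for ANXA2, and CACGTG, in 6.34%, in 2, for ANXA4 and ANXA6. The motifs were chosen with the sequences in view, the matches are descriptions of letters, and no promoter activity was measured here.

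PHF8, the targeted gene, was at 25.9 and 22.5 TPM in the shControl libraries and at 6.06 and 6.42 TPM in the shPHF8 libraries, 25.8% of the control mean. The log2 fold change of PHF8 was -1.80 ± 0.16 (SE; limma with Benjamini-Hochberg, adjusted p 0.0643). Of the 10972 genes tested, 5.93% differed by over 2-fold between the controls, 5.48% between the knockdowns and 8.38% to 9.93% across groups. The 12 erythroid markers, which K562 is known to express, summed to 8677 and 9201 TPM in the controls and to 13627 and 12933 TPM in the knockdowns. HBG1, a globin, made up much of that sum, at 2871 and 2960 TPM in the controls and 4833 and 4524 TPM in the knockdowns. Not all of the 12 markers were higher in the knockdowns. TPM keep no read number, so the depth of each library is unknown and no counting error can be given. In bulk RNA, fewer cells that express a gene and less of its RNA per cell cannot be told apart.

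The annexins spanned a wide range of levels in the control libraries. ANXA1 stood highest, above 98.8% of the genes tested, and was followed by ANXA2, ANXA7, ANXA11, ANXA5, ANXA6 and ANXA4. In that order of control TPM, ANXA6 and ANXA4 were the neighbours whose ranges over 2 libraries overlapped. In the knockdown libraries the first 5 kept the order, ANXA11 and ANXA5 overlapped, and ANXA4 stood above ANXA6.

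**Figure D1:**
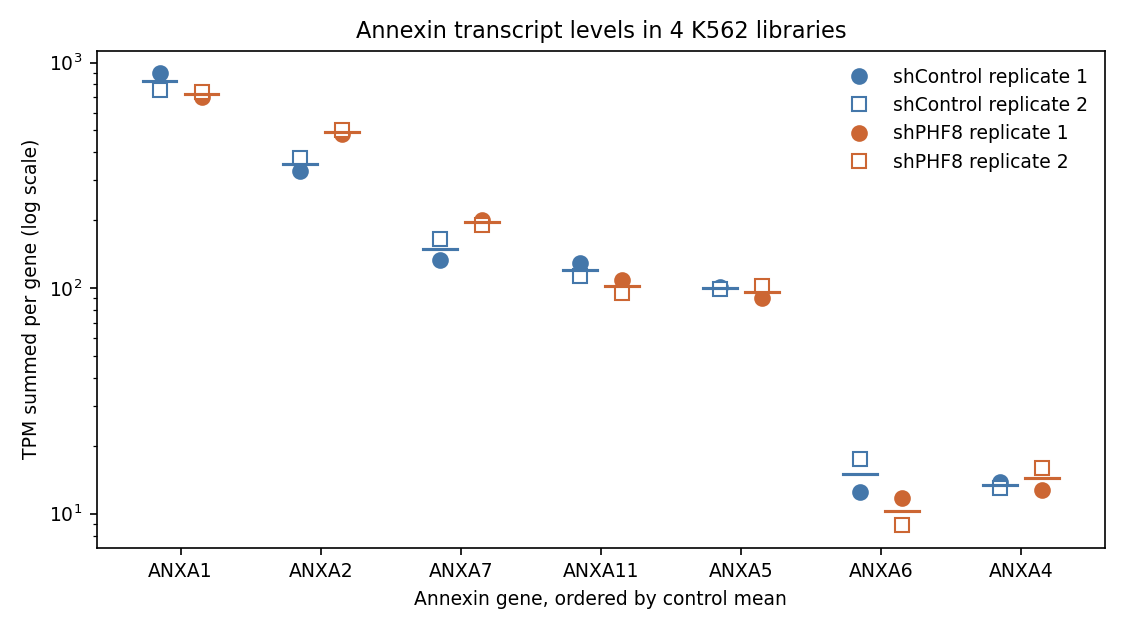
TPM summed per gene (log axis) for the 7 annexins, ordered by control mean; blue is shControl and orange shPHF8, circles are replicate 1 and squares replicate 2, and each bar is a group's mean. ANXA1 lies between 703 and 895 TPM in every library, and both ANXA2 knockdown points lie above both control points.

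ANXA2 forms a complex with S100A10 that binds plasminogen activators at the cell surface and links membranes to actin. Its level was 330.2 and 378 TPM in the controls and 479.9 and 502 TPM in the knockdowns, so both knockdown libraries were above both controls. The means were 354 ± 33.5 TPM and 491 ± 15.4 TPM (SD, n = 2 each), the second 139% of the first. The log2 fold change on the log2(TPM + 1) scale was 0.47 ± 0.09 (SE; 95% confidence interval 0.23 to 0.71, or 1.18 to 1.64 times). The limma p was 0.00512 before and 0.104 after Benjamini-Hochberg adjustment over all genes, so ANXA2 did not pass the threshold of 0.05. ANXA2 has 3 near-identical processed pseudogenes in GENCODE release 29, ANXA2P1, ANXA2P2 and ANXA2P3. How reads shared with them were divided is not given in the sources used here, which makes the ANXA2 level uncertain.

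ANXA7, first known for aggregating chromaffin granules in the presence of calcium, was at 133 and 165 TPM in the controls and at 199.6 and 191 TPM in the knockdowns. Again both knockdown libraries lay above both controls. The means were 149 ± 23.2 TPM and 196 ± 5.79 TPM (SD, n = 2 each). On the log2 scale the fold change was 0.40 ± 0.13 (SE; 95% interval 0.04 to 0.75, or 1.03 to 1.68 times), with a limma p of 0.0352 and an adjusted p of 0.200. Without shControl replicate 1 the log2 fold change was 0.24, and its unadjusted limma p was 0.0507. That p was 0.132 without shPHF8 replicate 1 and 0.0952 without shPHF8 replicate 2. ANXA7 and ANXA2 kept a like ratio: ANXA2 was at 2.49 and 2.28 times ANXA7 in the controls and at 2.40 and 2.62 times in the knockdowns.

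ANXA1, a protein induced by glucocorticoids that limits inflammation through formyl peptide receptors, was at 895 and 754 TPM in the controls. In the knockdowns it was at 703 and 742 TPM. The higher knockdown value lay just under the lower control value, so the groups were separate by a narrow gap. The means were 825 ± 100.1 TPM and 722 ± 27.7 TPM (SD, n = 2 each). The log2 fold change of -0.19 ± 0.10 (SE; 95% interval -0.46 to 0.09) had a limma adjusted p of 0.368. Without shControl replicate 1 it was -0.06, and without shControl replicate 2 it was -0.31.

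ANXA11 binds PDCD6 and S100A6, takes part in the last step of cell division and tethers RNA granules to lysosomes. It was at 129 and 113 TPM in the controls and at 109 and 94.7 TPM in the knockdowns. Both knockdown libraries were below both controls. The log2 difference was -0.25 ± 0.12 (SE; 95% interval -0.57 to 0.08), at a limma adjusted p of 0.326. Without shPHF8 replicate 2 it was -0.15.

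ANXA6, whose core is longer than that of the other annexins, binds the Ras GTPase-activating protein RASA1 at membranes. It had the annexins' largest log2 fold change in size and also a wide spread between controls. Its values were 12.5 and 17.5 TPM in the controls and 11.7 and 8.89 TPM in the knockdowns, with means of 15 ± 3.53 TPM and 10.3 ± 2.01 TPM (SD, n = 2 each). The log2 fold change was -0.50 ± 0.25 (SE; 95% interval -1.17 to 0.18), with a limma adjusted p of 0.333. Without shControl replicate 2, the higher control, it was -0.27.

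ANXA5, the phosphatidylserine-binding protein used to stain dying cells, was at 101 and 98.7 TPM in the controls and at 90.1 and 102 TPM in the knockdowns. The groups overlapped. For ANXA5 the log2 fold change was -0.06 ± 0.10 (SE), and the 95% interval, -0.33 to 0.20, covers 0.796 to 1.15 times the control level (limma adjusted p 0.742). ANXA4, which is known for binding membranes of secretory epithelia, was at 13.9 and 13 TPM in the controls and at 12.8 and 16 TPM in the knockdowns. These also overlapped, with a log2 fold change of 0.08 ± 0.18 (SE; 95% interval -0.39 to 0.56) and a limma adjusted p of 0.808. Its sign turned without shPHF8 replicate 2, at -0.066, and that of ANXA5 without shPHF8 replicate 1, at 0.024.

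None of the 7 annexins passed a limma adjusted p of 0.05, and of the 10972 genes tested 0% passed; the smallest adjusted p of any gene was 0.0554. At an unadjusted p under 0.05, 2 annexins were higher, where 9.9% of all genes were, and 0 were lower, where 12.1% of all genes were (22% of genes in either direction). The groups did not overlap for 5 annexins, 2 higher and 3 lower, beside 55.3% of all genes, 26% higher and 29.3% lower. That share is near the background and is no result about the annexins. The median log2 fold change was -0.06 over the annexins and -0.02 over all genes tested, whose quartiles were -0.28 and 0.22. On simulated data with 10972 genes, the adjusted call found 9% of genes given a log2 change of 0.5 and 51.8% of those given 1. Each simulated run changed 200 genes, while 22% of the real genes had an unadjusted limma p under 0.05. Simulated variances also differed less from gene to gene than the fit to the real data estimated. These rates may therefore not hold for the real libraries. With 2 libraries in each group the smallest two-sided p of an exact permutation test is 0.333, so none was run.

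**Figure D2:**
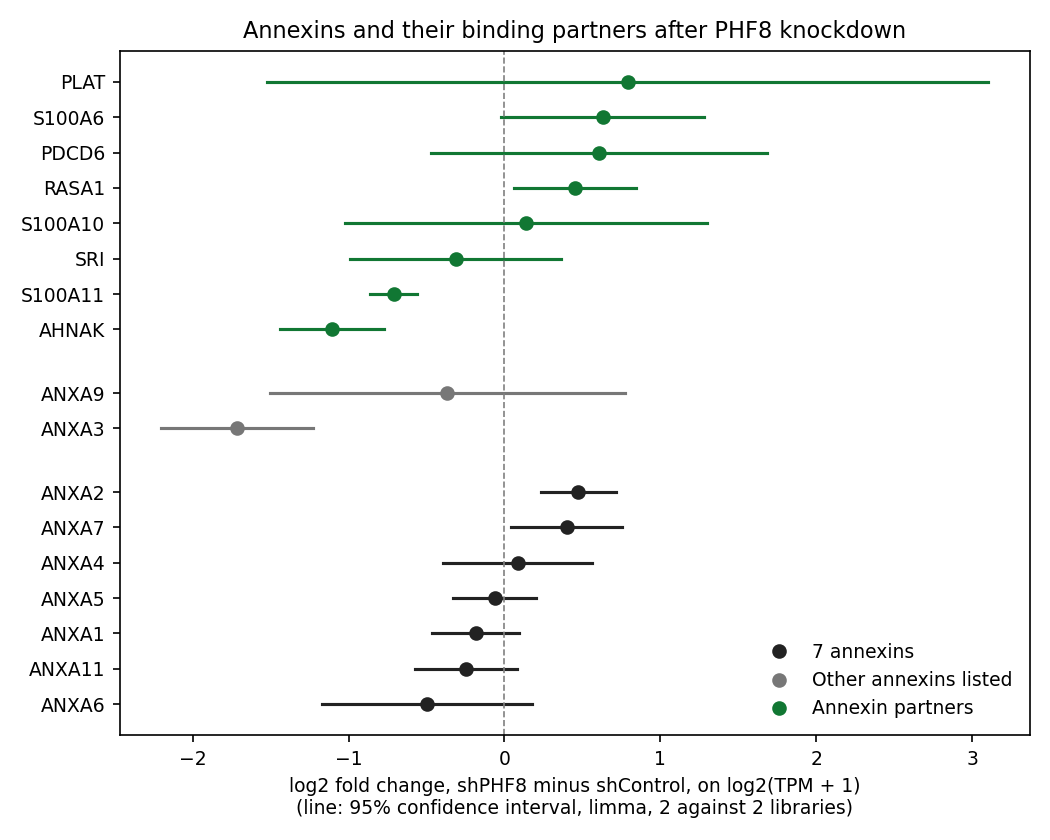
Log2 fold change, shPHF8 minus shControl on log2(TPM + 1) (horizontal axis), with its 95% limma interval as a line, for the 7 annexins, the other annexins ANXA3 and ANXA9, and the 8 binding partners tested. The intervals of ANXA2 (0.23 to 0.71), ANXA7 (0.04 to 0.75) and RASA1 (0.06 to 0.84) lie right of 0. Those of S100A11 (-0.86 to -0.56), AHNAK (-1.44 to -0.77) and ANXA3 (-2.20 to -1.23) lie left of it.

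The annexin pool was of like size in both groups and differed in make-up. The 7 genes summed to 1614 and 1539 TPM in the controls and to 1606 and 1656 TPM in the knockdowns, so the sums overlapped. ANXA1 made up 55.5% and 49.0% of the pool in the controls, against 43.8% and 44.8% in the knockdowns. ANXA2 made up 20.5% and 24.5%, against 29.9% and 30.3%. Both shares were separate between the groups, as was that of ANXA7, at 8.21% and 10.7% against 12.4% and 11.6%. The shares of ANXA5, ANXA6 and ANXA11 were separate too, each lower in the knockdowns, and that of ANXA4 overlapped. Over all genes tested, the levels of 55.3% did not overlap between the groups. No such background was computed for shares within a pool, so separate shares are not read as particular to these annexins. ANXA11 made up 7.97% and 7.33% in the controls and 6.77% and 5.72% in the knockdowns.

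The ratio of ANXA1 to ANXA2 TPM was 2.71 and 2.00 in the controls and 1.46 and 1.48 in the knockdowns. The controls differed from each other by about as much as the lower control differed from the knockdowns, so the size of this shift rests on few libraries. The ratio of ANXA2 to ANXA5 was 3.26 and 3.82 in the controls and 5.33 and 4.93 in the knockdowns. That of ANXA7 to ANXA11 was 1.03 and 1.47, against 1.84 and 2.02. Shares and ratios were not tested, since they restate the levels above, and a share is lower where another member's is higher.

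**Figure D3:**
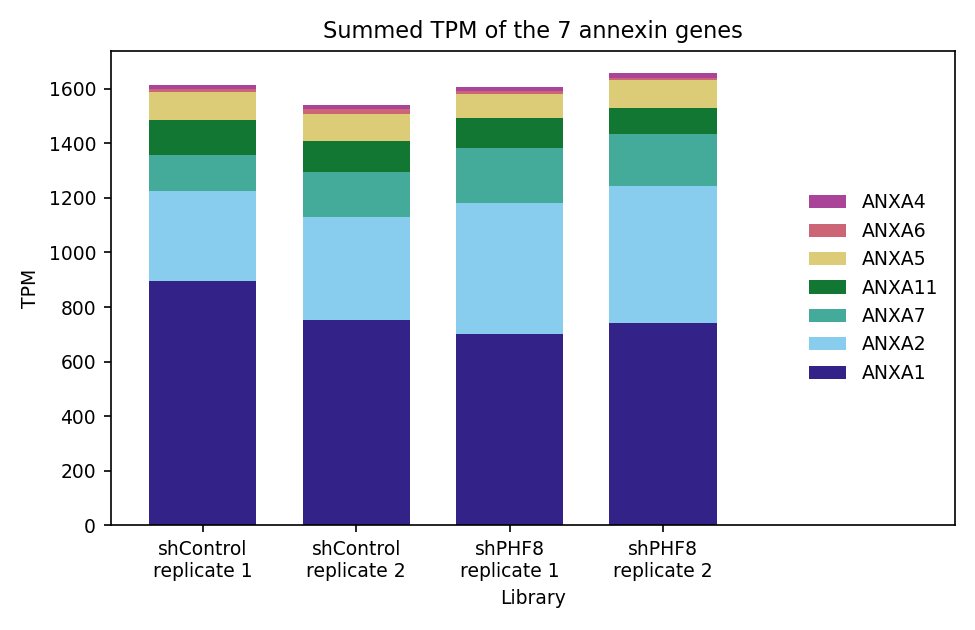
Summed TPM of the 7 annexins in each library, stacked by gene from the bar's foot at 0. Bar heights lie between 1539 and 1656 TPM, while the ANXA2 segment is 330.2 and 378 TPM in the controls and 479.9 and 502 TPM in the knockdowns.

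Transcripts of the annexins were described one by one, since a gene's sum can hide a switch between isoforms. Of the 35 annexin transcripts, all coding for protein in GENCODE release 29, 33 were tested and 17 held at least 5% of their gene's mean TPM. None of the 33 had a limma adjusted p under 0.05, as against 0.0033% of the 30266 transcripts tested. At an unadjusted p under 0.05, 2 were higher and 1 was lower, where 4.91% and 5.38% of all transcripts were (10.3% in either direction). The groups did not overlap for 8 higher and 6 lower annexin transcripts, beside 21% and 22.2% of all transcripts (43.2% in either direction).

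ANXA1-002, which codes for 346 residues, held 89.6% of ANXA1 TPM. It was at 845 and 686 TPM in the controls and at 609.6 and 631 TPM in the knockdowns, with a log2 fold change of -0.29 ± 0.12 (SE). ANXA1-003, which is longer in its noncoding part and also codes for 346 residues, was at 38.3 and 59.0 TPM in the controls and at 84.4 and 97.0 TPM in the knockdowns. It stood apart from the main transcript in direction: both its knockdown values were above both controls. For ANXA1-003 the log2 fold change was 0.91 ± 0.26 (SE), at a limma p of 0.0294 and an adjusted p of 0.408. As a share of ANXA1 TPM it held 4.28% and 7.82% in the controls and 12% and 13.1% in the knockdowns.

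The main ANXA2 transcript, ANXA2-005, codes for 339 residues and held 76.2% of ANXA2 TPM. It was at 284 and 277 TPM in the controls and at 354 and 372 TPM in the knockdowns, the same order as the gene's sum. On the log2 scale ANXA2-005 differed by 0.37 ± 0.06 (SE), with a limma p of 0.00488 and an adjusted p of 0.247. ANXA2-002 was at 18.8 and 32.7 TPM in the controls and 44.1 and 36.0 TPM in the knockdowns. ANXA2-009 split the libraries by number instead of by group, at 1.83 and 31.3 TPM in the controls and 6.25 and 49.99 TPM in the knockdowns.

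The ANXA7 sum did not come from 1 transcript throughout. ANXA7-001, which codes for 466 residues, was at 125 and 163 TPM in the controls and at 54.4 and 182 TPM in the knockdowns. ANXA7-002, which codes for 488 residues, was at 1.27 and 0 TPM in the controls and at 143 and 0.0340 TPM in the knockdowns. In shPHF8 replicate 1 alone the longer form thus held most of the ANXA7 TPM. With ANXA7 read from its top transcript only, the log2 fold change was -0.52 and its unadjusted limma p 0.496. The longer ANXA7 form is known from muscle, brain and red cells, and how the reads of both forms were divided is not given in the sources used here.

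ANXA5 showed the same instability in both groups. ANXA5-003 (260 residues) was at 73.3 and 0 TPM in the controls and at 0 and 76.3 TPM in the knockdowns, while ANXA5-004 (220 residues) was at 0 and 38.5 TPM and at 31.9 and 0 TPM. ANXA5-001, the full form of 320 residues, was at 28.0 and 60.2 TPM in the controls and at 58.2 and 25.3 TPM in the knockdowns. The sum over these transcripts stayed between 90.1 and 102 TPM in all 4 libraries, while single transcripts were listed at 0.

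ANXA4-001 (321 residues) was at 12.8 and 12.3 TPM in the controls and at 11.5 and 4.76 TPM in the knockdowns, and ANXA4-002 (299 residues) at 1.10 and 0.690 TPM and at 1.26 and 11.3 TPM. Here shPHF8 replicate 2 was the library that differed. ANXA6-001 (673 residues) was at 12 and 14 TPM in the controls and at 10.7 and 7.5 TPM in the knockdowns. ANXA6-002 (460 residues) was at 0.502 and 3.54 TPM in the controls and at 1.07 and 1.39 TPM in the knockdowns, so the main form carried the order of the ANXA6 sum.

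ANXA11 was spread over 3 main transcripts. ANXA11-010, with an incomplete coding sequence, was at 45.7 and 38.6 TPM in the controls and at 33.1 and 31.7 TPM in the knockdowns. ANXA11-002 and ANXA11-001, which code for 505 residues each, overlapped between groups. The former was at 33.0 and 30.6 TPM against 44.1 and 27.3 TPM, and the latter at 38.3 and 33.7 TPM against 19.0 and 34.0 TPM. ANXA11-201 (472 residues), with 4.14% of ANXA11 TPM, is named after its values were seen, as the 1 annexin transcript lower at an unadjusted p under 0.05. It was at 10.3 and 6.31 TPM in the controls and at 1.45 and 0.351 TPM in the knockdowns, with a log2 fold change of -2.32 ± 0.49 (SE) and a limma adjusted p of 0.324.

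The difference in transcript mix was measured as the percent of a gene's TPM that would have to move between its transcripts to make 2 libraries alike. For ANXA1 it was 3.63% between the controls, 1.65% between the knockdowns and 4.29% to 9.30% across groups. ANXA1 was the 1 annexin whose libraries all differed more across groups than within them, a pattern found in 10.9% of the 7717 genes with at least 2 transcripts. For ANXA2 the values were 16.2% and 12% within groups and 6.09% to 15.2% across. For ANXA5 they were 72.4% and 75.1% within groups, so its mix differed as much between libraries of a group as across groups. ANXA7 and ANXA4 differed by 4.01% and 2.61% between the controls but by 71.4% and 60.4% between the knockdowns. For ANXA11 the values within groups were 3.74% and 21.4%, and for ANXA6 16.2% and 6.53%. Over all these genes the median was 11.9% between the controls and 11.8% between the knockdowns.

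**Figure D4:**
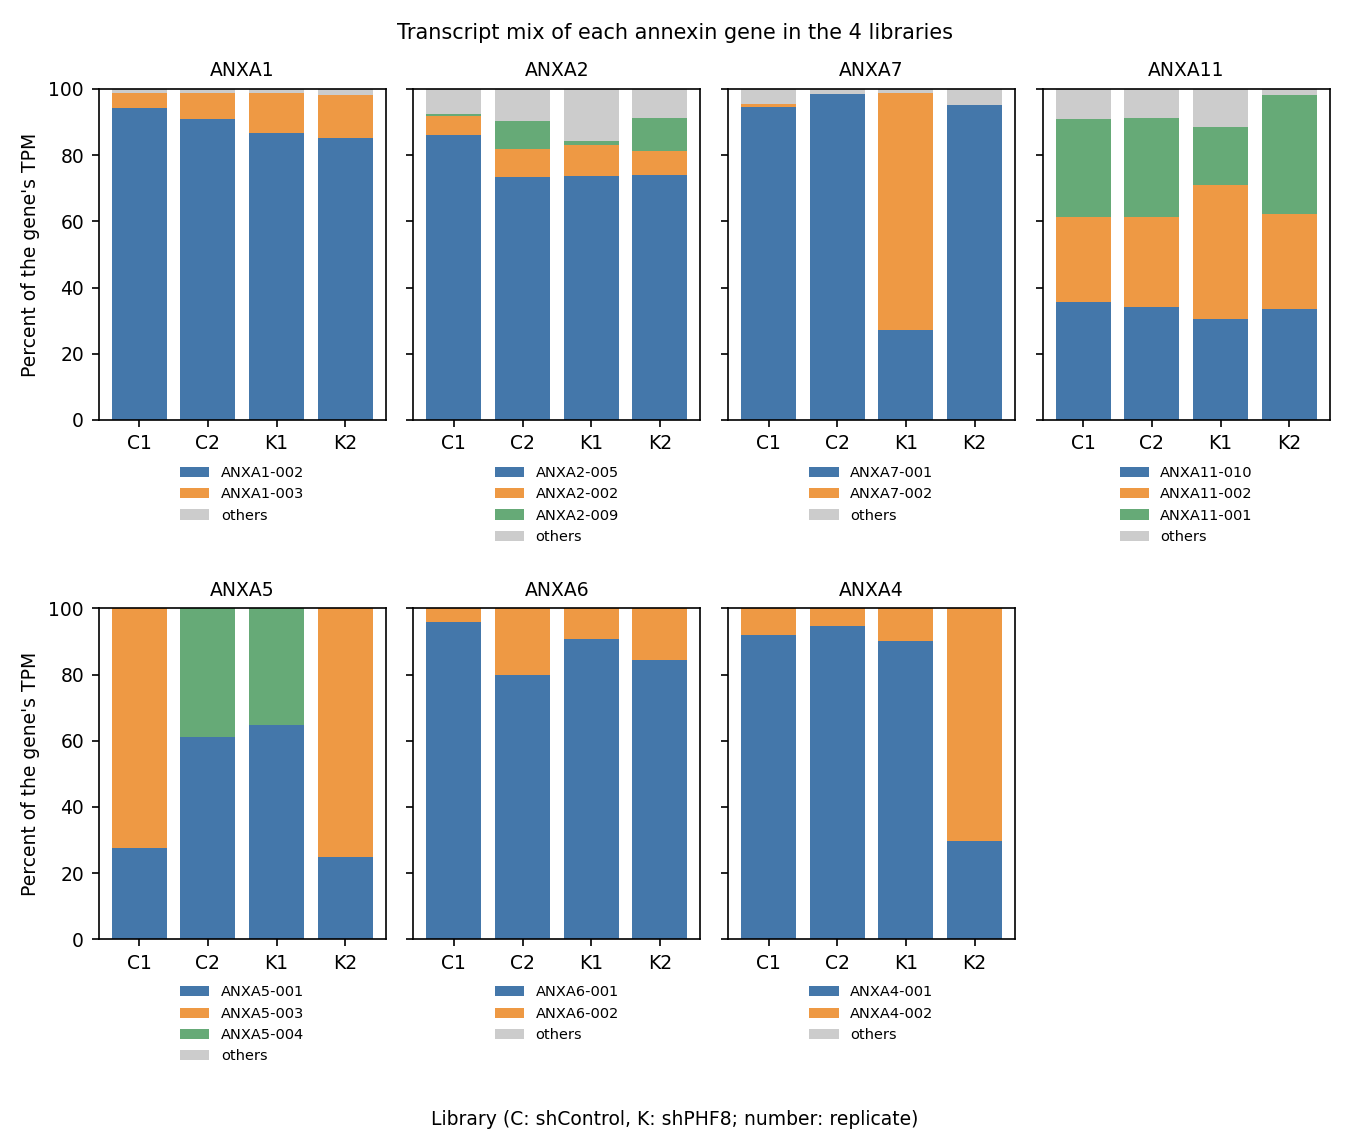
Percent of each annexin gene's TPM (vertical axis, 0 to 100) held by its transcripts with at least 5% of the gene's mean, in the 2 shControl (C1, C2) and 2 shPHF8 (K1, K2) libraries, with the rest in grey. ANXA1-003 takes 4.28% and 7.82% in C1 and C2 and 12% and 13.1% in K1 and K2, while the ANXA5 bars differ within each group.

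A pair of further annexins was in the table. ANXA3, an annexin of neutrophils and other myeloid cells, was at 17.9 and 17.5 TPM in the controls and at 4.23 and 5.19 TPM in the knockdowns. Its difference was larger in size than that of any of the 7 annexins, which was not tested. The log2 fold change was -1.72 ± 0.18 (SE; 95% interval -2.20 to -1.23), with a limma p of 0.000538 and an adjusted p of 0.0677. ANXA9, named to complete the pair, was at 1.85 and 4.26 TPM in the controls and at 1.60 and 2.47 TPM in the knockdowns, where the groups overlapped (limma adjusted p 0.648). ANXA8, ANXA8L1, ANXA10 and ANXA13 had no row under those names in the deposited table.

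Among the binding partners, 8 of 12 genes chosen were tested. FPR1, FPR2, PLG and PLA2G4A had no row under those names in the deposited table. At an unadjusted limma p under 0.05, 1 partner was higher and 2 were lower, beside 9.9% and 12.1% of all genes tested, and 0 passed after adjustment. With shPHF8 replicate 1 or 2 left out, 0 and 2 partners were higher. The partners' median log2 fold change was 0.29, beside -0.02 over all genes.

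S100A11, the calcium-binding partner of the ANXA1 tail, was at 446 and 453 TPM in the controls and at 274 and 274 TPM in the knockdowns. The groups were far apart relative to the spread within them, with means of 449.7 ± 5.04 TPM and 274 ± 0.462 TPM (SD, n = 2 each). For S100A11 the log2 fold change was -0.71 ± 0.06 (SE; 95% interval -0.86 to -0.56), with a limma adjusted p of 0.0560. With quantile normalization the adjusted limma p was 0.0485, with a log2 fold change of -0.72. The interval of S100A11 did not reach that of ANXA1, whose own log2 fold change was -0.19, although the difference between them was not tested.

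S100A10, the partner that anchors ANXA2 at the plasma membrane, was at 1.88 and 0.784 TPM in the controls and at 1.02 and 2.09 TPM in the knockdowns. It was close to the filter on low values in every library, while ANXA2 was at 330.2 to 502 TPM. AHNAK, a giant scaffold that binds the ANXA2 complex, was at 58.4 and 68.1 TPM in the controls and at 28.9 and 28.6 TPM in the knockdowns. AHNAK had a log2 fold change of -1.11 ± 0.12 (SE; limma adjusted p 0.0696), so it had lower values where ANXA2 had higher ones. PLAT, the tissue plasminogen activator, was listed at 0 and 4.01 TPM in the controls and at 2.99 and 2.76 TPM in the knockdowns.

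RASA1, which ANXA6 brings to membranes, was at 22.3 and 19.0 TPM in the controls and at 27.3 and 29.6 TPM in the knockdowns. RASA1 had a log2 fold change of 0.45 ± 0.14 (SE), in the direction away from that of ANXA6. Its limma p was 0.033 and its adjusted p 0.194. With the replicate number as a block in the fit, the unadjusted limma p of RASA1 was not under 0.05. Its log2 fold change was 0.34 to 0.56 when a library was left out. SRI, the sorcin that binds ANXA7, was at 71.9 and 45.1 TPM in the controls and at 44.9 and 46.4 TPM in the knockdowns, so shControl replicate 1 alone was high. S100A6 was at 38.7 and 39.5 TPM in the controls and at 76.2 and 48.9 TPM in the knockdowns (limma adjusted p 0.236). PDCD6, the calcium sensor that binds ANXA7 and ANXA11, was at 87.7 and 105 TPM in the controls and at 214 and 101 TPM in the knockdowns. For S100A6 and PDCD6, shPHF8 replicate 1 was the high library. Without it the log2 fold change was 0.31 for S100A6, against 0.63 with it, and 0.06 for PDCD6, against 0.61.

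The S100 proteins are small calcium sensors, several of which bind annexin tails. Of 9 tested, 5 were lower and 0 higher at an unadjusted limma p under 0.05, where 12.1% and 9.9% of all genes were. The median log2 fold change was -0.45, and 0 passed after adjustment. S100A1 was at 24.0 and 20.5 TPM in the controls and at 11.8 and 10.9 TPM in the knockdowns (log2 fold change -0.91). S100P was at 29.7 and 19.3 TPM and at 9.18 and 5.93 TPM (-1.57). S100A9, a granulocyte protein that also stands among the granulocyte markers, was at 1.65 and 2.17 TPM and at 0.575 and 0 TPM (-1.21). S100A4, named as the remaining one after its values were seen, had a log2 fold change of -0.45. S100A6 and S100A10, given above among the partners, went the other way, at 0.63 and 0.14. So did S100A13, likewise named, at 0.34. The S100 count was 3 to 4 when either group lost a library.

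Membrane binders with a C2 domain, the other large calcium-dependent family, were higher in 1 and lower in 0 of 13 tested, beside 9.9% and 12.1% of all genes, with a median log2 fold change of 0.26. The 1 was CPNE1, a copine, at 26.1 and 22.5 TPM in the controls and at 42.3 and 53.3 TPM in the knockdowns (log2 fold change 0.94, limma adjusted p 0.103). The next by p were CPNE2, at 0.45, ESYT1, a tether between the endoplasmic reticulum and the plasma membrane, at 0.26, and SYTL1 at -0.34. Of 19 ESCRT and calpain genes, which act with annexins in membrane repair, 0 were higher and 3 lower, a share of lower genes near the 12.1% of all genes, with a median log2 fold change of -0.13. VPS4B, an ATPase that takes ESCRT filaments apart, was at 26.8 and 27.3 TPM in the controls and at 15.5 and 13 TPM in the knockdowns (limma adjusted p 0.0951). CHMP5 and CHMP2A, both filament subunits or their partners, had log2 fold changes of -0.45 and -0.28, and CHMP6 one of 0.30. Without shControl replicate 1 the ESCRT count was 2 higher and 1 lower, and without shPHF8 replicate 2 it was 0 and 1. The C2-domain count of higher genes was 3 and 2 without shControl replicate 1 and 2.

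Genes that set phosphatidylserine exposure, the lipid signal that annexins read, had a median log2 fold change of -0.07 over 9 tested, of which 1 was higher at an unadjusted limma p under 0.05, beside 9.9% of all genes. It was TMEM30A, a subunit of the flippases that keep the lipid inside, with a log2 fold change of 0.71 (limma adjusted p 0.213). PLSCR1, a scramblase family member, was at -0.30 and the flippase ATP8B2 at -0.20. Without shControl replicate 1 or 2, or without shPHF8 replicate 2, the count of higher genes was 0, so no direction is read for this list.

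Marker lists of blood and stromal cells differed between the groups beside the annexin values, and their part in the annexin results was not tested. Of 9 granulocyte and monocyte markers tested, 8 were lower and 0 higher at an unadjusted limma p under 0.05, where 12.1% and 9.9% of all genes were. Their median log2 fold change was -1.12, and 4 were lower with a minimum mean of 5 TPM, under which fewer genes are tested. Their summed level was 332 to 369 TPM in the controls and 246 to 255 TPM in the knockdowns. LYZ, the lysozyme of myeloid granules, was at 69.2 and 74.7 TPM in the controls and at 43.2 and 41.6 TPM in the knockdowns, CD33 had a log2 fold change of -1.12 and CD68 one of -0.80. ITGAM was at 2.97 and 5.67 TPM and at 0.165 and 0.126 TPM. TYROBP, named after its values were seen, was listed at 0 in both knockdown libraries. The other 10 genes of the list, MPO, ELANE and CD14 among them, had no row under those names in the deposited table.

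Of the 12 erythroid markers, 7 were higher and 0 lower at an unadjusted p under 0.05, beside 9.9% and 12.1% of all genes, with a median log2 fold change of 0.41. HBG2, HBG1 and HBE1, globins of fetal and embryonic red cells, had log2 fold changes of 0.81, 0.68 and 0.43. AHSP, which protects free alpha globin, was at 41.5 and 26.9 TPM in the controls and at 118 and 118 TPM in the knockdowns. The groups did not overlap for 9 erythroid markers higher and 2 lower, beside 26% and 29.3% of all genes. The 2 lower, named after their values were seen, were GATA1 at -0.14 and GYPB at -0.27 on the log2 scale. EPOR, likewise named, was at -0.26 with groups that overlapped. With quantile normalization 1 erythroid marker was lower at an unadjusted limma p under 0.05. Megakaryocyte markers were higher in 1 and lower in 2 of 5 tested at an unadjusted p under 0.05, beside 9.9% and 12.1% of all genes. Just 1 was lower without shControl replicate 2 and without either shPHF8 library, also with median-of-ratios scaling or quantile normalization. With a minimum mean of 5 TPM 0 were lower. Their sum was 28.4 to 37.6 TPM in the controls and 51.2 to 54.2 TPM in the knockdowns. That sum was carried by TUBB1, at 11 and 13.2 TPM against 35.4 and 34.9 TPM, while PLEK had a log2 fold change of -2.12 and THBS1 one of -1.01, and ITGA2B was at 0.37. Of the lymphocyte markers, CD3D was at 29.6 and 31.5 TPM in the controls and at 14.9 and 11 TPM in the knockdowns, with a log2 fold change of -1.19. Of 3 stromal and endothelial markers tested, 2 were lower, beside 12.1% of all genes, VIM at -0.71 and COL1A2 at -2.07 on the log2 scale, while COL1A1 was at 0.21. Their sum, nearly all VIM, was 500.3 to 507 TPM in the controls and 303 to 306 TPM in the knockdowns. In none of these lists did a gene pass the adjusted p.

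The genes most like ANXA6, the annexin with the largest fold change in size, were found by the root mean squared distance of log2(TPM + 1), centred on each gene's mean, over the 4 libraries. BBS12 was nearest, at a distance of 0.012, with 9.27 and 13.4 TPM in the controls and 8.71 and 6.61 TPM in the knockdowns. DOK3 followed at 0.034 and WDR4 at 0.042. Within a distance of 0.1 of ANXA6 there were 68 genes, so with 4 libraries this likeness is shared by many.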

How the data were processed

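RNA abundance was measured in 2 shControl and 2 shPHF8 libraries of K562, in groups taken from the labels. The tools, per the submitters' processing notes, were StringTie 1.2.3 and HISAT2 2.0.4, and the build was hg19. For the annotation, strand setting and division of shared reads, the sources used here give nothing. The authors deposited TPM per transcript, per the file headers, and 4 further columns without a unit, treated as signal; the deposited signal was a constant fraction of TPM in each library and was not used. Depth is unknown.

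Gene values are sums of TPM over the transcripts of a name, on the scale log2(TPM + 1), which understates changes of low genes. Genes averaging 1 TPM or more (10972) were fitted with limma 3.58.1 (R 4.3.3; empirical Bayes with a trend, two-sided, Benjamini-Hochberg over all genes, threshold 0.05), and 30266 transcripts likewise. "Higher" and "lower" counts use unadjusted p. The fit was tested on simulated data. It ran again under 12 alternatives. Tables and figures used Python 3.11.15, pandas 2.3.3, numpy 2.4.6 and matplotlib 3.10.9.

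Transcript types, coding lengths and pseudogenes came from GENCODE release 29, matched by transcript identifier, and promoter windows from RefSeq on GRCh38.p14; both are on another build than hg19, so they were not joined to positions of the files. The annexins and the 11 gene lists were chosen with earlier results of these data known. Genes named were PHF8, the annexins, their transcripts with at least 5% of the gene's TPM, every tested partner, per other list the 4 tested members with the smallest p, and the 3 genes nearest in pattern to the annexin with the largest fold change. Some listed genes are not reported here.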

Additional observations from a re-analysis of the deposited data

How the results depend on the processing

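The 12 alternatives were a pseudocount of 0.1, no filter, a minimum mean of 5 TPM, quantile normalization, median-of-ratios scaling, no trend, a replicate block, leaving out each of 4 libraries, and, for the annexins, only the top transcript. The ANXA2 log2 fold change was 0.37 to 0.57 over all 12, with a limma unadjusted p under 0.05 in each and an adjusted p of 0.0964 to 0.335; that of ANXA7 had such a p in 7. No annexin passed the adjusted threshold in any of them. Where a value moved, the cause was not tested, except that leaving out a library leaves fewer samples; the lone library is then assumed to vary like the other group.

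With quantile normalization 17 genes were higher and 20 lower at an adjusted limma p under 0.05, none of them an annexin, and otherwise 0. Higher annexins at an unadjusted p under 0.05 numbered 1 without the trend and 1 with the top transcript, against 2, and those with groups that did not overlap 1 with the top transcript, against 2. With the top transcript the median log2 fold change was -0.37, and ANXA4 and ANXA7 turned sign, to -0.67 and -0.52. Higher transcripts numbered 0 without the trend, against 2, and lower ones 0 with the minimum of 5 TPM, against 1.

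Leaving out 1 library gave 1 to 2 higher and 0 to 1 lower annexins, 3 to 4 higher and 0 to 3 lower transcripts, and 592 to 1118 higher genes against 1086. The partner and pathway lists together had 3 higher and 10 lower members, and 2 to 6 and 5 to 9 with 1 library left out. Signs turned in ANXA4 (-0.066 to 0.24), ANXA5 (-0.15 to 0.024), ANXA9 (-0.81 to 0.076), S100A10 (-0.21 to 0.48), SRI (-0.64 to 0.017), PLAT (-0.37 to 1.95) and COL1A1 (-0.13 to 0.56).

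The labels share replicate numbers between the groups without saying that a number marks a shared culture or day. Across genes, same-numbered libraries' deviations correlated at -0.03, so no pairing was assumed. With the replicate block 888 genes were higher and 1061 lower at an unadjusted p under 0.05, against 1086 and 1328, and 0 passed the adjusted threshold. The partner and pathway lists then had 5 higher and 6 lower members. The annexin counts stayed at 2 higher and 0 lower, and the transcript counts at 2 and 1. The unknown depth limits all values at low TPM.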
